A study of Homo sapiens with 12 samples.

Results

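Expression of the genes that drive cells from the G1 phase into S phase was compared between high and low glucose in HepG2, a human hepatoma cell line that divides in culture and is often taken as a stand-in for liver cells. The genes were 4 G1 cyclins (CCND1, CCND3, CCNE1 and CCNE2), 3 cyclin-dependent kinases or CDKs (CDK2, CDK4 and CDK6) and 3 CDK inhibitors (CDKN1A, CDKN1B and CDKN2C). They were chosen by name, but with earlier results of these data known, as were the gene lists and pairs compared below. The counts and p-values of these choices are therefore no independent evidence. Every array probe annotated to one of the 10 genes was taken. This gave 13 of the 48803 probes in the table, for 9 of the 10 genes. No probe was annotated to CDKN2C, whose expression is not analysed here. RNA was measured on 12 arrays of the Illumina HumanHT-12 BeadChip type, 6 from high glucose cultures (25 mM) and 6 from low glucose cultures. By the methods of the study, the cells were maintained in 25 mM glucose, held in 2.7 mM for 16 h and then kept for 8 h in the compared media. The sample labels give the low glucose medium as 2.7 mM, whereas the methods name 0 mM for these arrays, and the files do not settle which is right. Both groups are the same unmodified line at passage 8 to 10 in DMEM with fetal bovine serum. The replicates are called biological in the methods, and whether they came from separate days is not given, so the p-values measure the spread among these 6 cultures of each group.

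In a dividing cell, D-type cyclins bind CDK4 and CDK6 and E-type cyclins bind CDK2. The active kinases phosphorylate the retinoblastoma protein and its relatives, which frees E2F transcription factors to switch on S phase genes. CDKN1A (p21) and CDKN1B (p27) bind the cyclin and kinase together, and p27 is removed through the ubiquitin ligase subunit SKP2. Normal hepatocytes rest outside the cycle and enter it when the liver regenerates, and cyclin D1 is a known marker of that entry.

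The values are the probe intensities deposited by the authors, quantile normalized and on a linear scale (lowest value 47.2, median 90.8). Whether background was subtracted is not given, and a floor of this height can hold background. The fold change of a dim probe can therefore be smaller than the change in its RNA. Brightness, given below as a percentile of all probes, is no measure of RNA level between genes. Log2 intensities were compared with limma over all probes, and p-values were adjusted by Benjamini-Hochberg and called under 0.05. A log2 change is high minus low glucose, and ± is the SD over 6 arrays. The arrays of 1 group correlated at r = 0.992 to 0.995 and those of different groups at r = 0.985 to 0.988. Low glucose replicate 5 correlated least with its group. Of 12 hepatocyte and hepatoma markers 10 were measured, with mean intensities from 2682 to 27903 and a summed level from 139039 to 157581 in high and from 139460 to 150170 in low glucose. Of 9 measured markers of other cell types, 7 had means under 100. The exceptions, named after their values were seen, were CD68 (5276) and PECAM1. The summed level of the 9 ran from 5563 to 6099 in high and from 5894 to 6889 in low glucose. Of these marker genes FGB and VWF were called higher and APOB lower. The call of VWF was lost without any of 6 arrays, high glucose replicates 1 and 4 or low glucose replicates 1, 2, 3 and 4. The part of these markers in the results below was not tested. In these bulk samples, a change in the share of cells in a phase cannot be told apart from a change of RNA in every cell.

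Of the 13 member probes, 6 were higher in high glucose, where 8.77% of all probes were, 1 was lower (7.43% of all probes) and 6 did not pass the test. In either direction 16.2% of all probes were called. All 4 probes of CCND1, CCND3 and CCNE1 and 1 probe each of CDK2 and CDK6 were called higher, and 1 probe of CDKN1B was called lower. Thus 4 of 5 cyclin probes (both CCNE1 probes counted), 2 of 4 kinase probes and none of 4 inhibitor probes were called higher. The dim CDKN1A probe had a log2 change of 0.22 that was not called (adjusted p = 0.079 from limma). The median log2 change was 0.22 over the 13 probes and 0.00 over all probes. The members are brighter than most probes, and brighter probes were called more often. Among the 20215 probes over an intensity of 100 on at least 6 arrays, 37.2% were called, 20.2% higher and 17% lower. Of the 11 member probes in that range, 5 were higher (45.5%) and 1 was lower (9.09%). High and low glucose arrays were fully apart for 6 of the 13 probes, against 10.5% of all probes and 24.6% of the brighter ones. With 13 probes the share of the members is coarse, and no test of the list was made. The members were also chosen with earlier results of these data known.

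**Figure D1:**
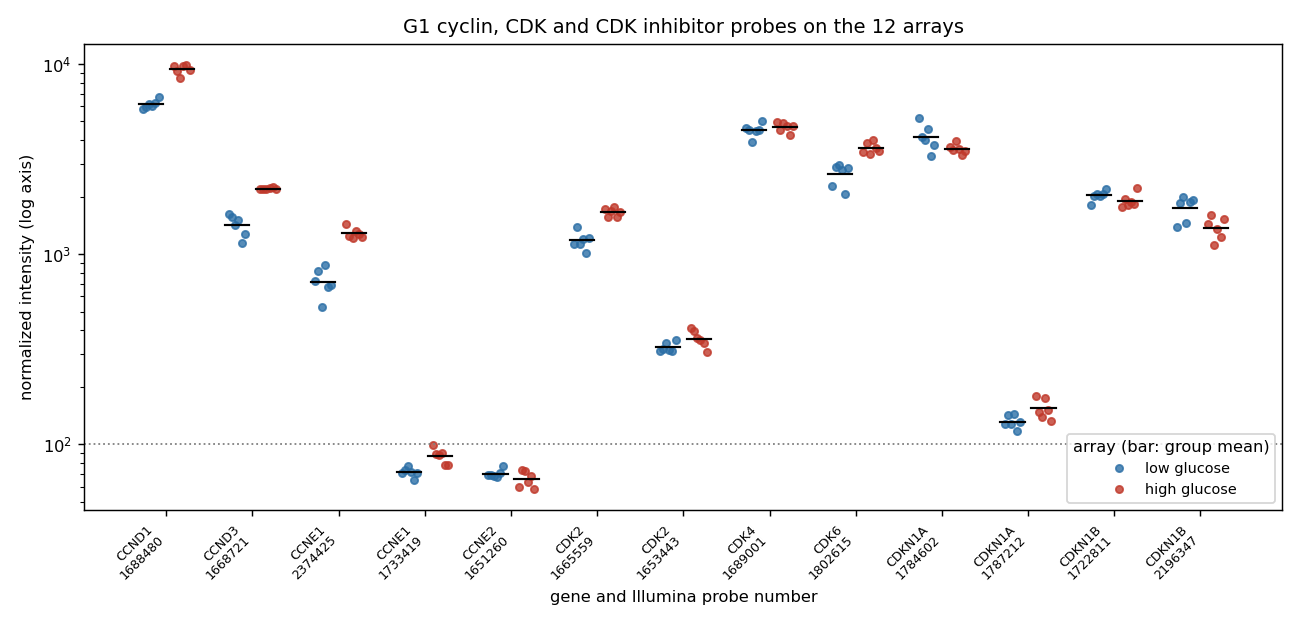
Normalized intensity (log axis) of the 13 member probes on each of the 12 arrays, with low glucose in blue, high glucose in red and bars at the group means. The groups are apart for CCND1, CCND3, both CCNE1 probes, the brighter CDK2 probe and CDK6, and they overlap for the other 7 probes. The dotted line marks an intensity of 100.

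CCND1 encodes cyclin D1, which links growth signals to CDK4 and CDK6. Its single probe (ILMN_1688480) stood at the 98.3 percentile of all probes by mean log2 intensity. In high glucose it ran from 8490.2 to 9888 with a median of 9551, and in low glucose from 5799.7 to 6759.55 with a median of 6106. All 6 high glucose arrays lay above all 6 low glucose arrays. The group means were 9417 ± 537 and 6169 ± 331 (SD, n = 6 each), a 1.53-fold rise (log2 change 0.61 with a standard error of 0.05, limma adjusted p = 5.7e-10).

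CCND3 encodes cyclin D3, a second partner of the same kinases. Its probe ran only from 2199 to 2262 in high glucose, whereas low glucose gave 1152 to 1638 with a median of 1475. The spread was thus narrow in high and wide in low glucose, with means of 2219 ± 23.2 and 1429.5 ± 185 (SD, n = 6 each). The log2 change was 0.64 with a standard error of 0.07 (adjusted p = 1.3e-07 from limma), a 1.56-fold rise. The changes of CCND1 and CCND3 were compared through the log2 difference between their probes on each array, which was 2.08 ± 0.08 in high and 2.12 ± 0.26 in low glucose. These differences overlapped, and the shift of -0.04 did not pass the test (two-sided exact permutation test, n = 6 each, p = 0.75). The other D-type cyclin gene, CCND2, named after its values were seen, was dim in both groups (90.3 and 88.5).

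CCNE1 encodes cyclin E1, the partner of CDK2 at entry into S phase, and had the largest log2 change of the 13 probes. Its brighter probe (ILMN_2374425) ran from 1219 to 1440.2 in high glucose, with a median of 1259, and from 529 to 882 in low glucose, with a median of 706. The lowest high glucose array was well above the highest low glucose array. The means were 1291 ± 83.4 and 718 ± 123 (SD, n = 6 each), a 1.82-fold rise (log2 change 0.86, 95% interval 0.68 to 1.05, adjusted p = 3.8e-08 from limma). Its other probe (ILMN_1733419) never reached 100 and ran from 77.9 to 99.5 in high and from 64.7 to 76.6 in low glucose. It too rose without overlap, by 0.28 on the log2 scale (adjusted p = 0.0041 from limma). The change of the brighter probe was larger by 0.58 on the log2 scale. The dimmer one lies near background, where changes can be compressed, so the value of 0.58 tells nothing of a difference between transcripts.

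CCNE2 encodes cyclin E2, which can take the place of cyclin E1. Its probe was among the dimmest on the arrays, at the 4.98 percentile. It ran from 58.1 to 73.0 in high and from 67.1 to 76.7 in low glucose, and these ranges overlapped. The log2 change was -0.10 (95% interval -0.23 to 0.03, adjusted p = 0.40 from limma), and a change of the RNA was not detectable at this brightness. On each array CCNE1 was set against CCNE2, and that log2 difference was 0.96 larger in high than in low glucose (two-sided exact permutation test, n = 6 each, p = 0.0022, the smallest that 6 against 6 arrays can give). As CCNE2 lay at background, this value restates the rise of CCNE1 and tells nothing of cyclin E2.

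The promoter of CCNE1 is shown because this gene rose most. The sequence, from RefSeq on GRCh38.p14, is chr19:29811741-29812040 on the plus strand, and holds the 250 bases before the transcription start and the first 50 bases of the transcript. Capitals mark the GC box, GGGCGG on either strand, which is the core of the site bound by Sp1 proteins.
CCNE1: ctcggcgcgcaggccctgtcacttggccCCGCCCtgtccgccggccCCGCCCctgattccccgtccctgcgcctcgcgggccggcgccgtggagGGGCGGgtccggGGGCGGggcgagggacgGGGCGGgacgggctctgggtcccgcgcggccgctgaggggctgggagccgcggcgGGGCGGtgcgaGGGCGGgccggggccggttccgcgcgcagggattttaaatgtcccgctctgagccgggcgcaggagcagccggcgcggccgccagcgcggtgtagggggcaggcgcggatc
There are 7 GC boxes, all of them before the start. GC boxes are common: 45% of 35116 promoter windows of this length hold at least 1, and 1.5% hold 7 or more. The E2F site was also searched on both strands, spelled TTTCGCGC, TTTGGCGC, TTTCCCGC or TTTGCCGC, and 3.31% of the windows hold it. The table of promoters holds 12 windows for 7 of the 10 genes (CCND3, CCNE1, CDK4, CDK6, CDKN1A, CDKN1B and CDKN2C), some genes having several starts. None of the 12 held these letters, and none held the AP-1 site TGANTCA, found in 7.71% of all windows. Only these exact spellings were searched, so sites spelled otherwise could be present, in the CCNE1 window too. A GC box was in 9 of the 12.

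CDK2, the kinase bound by cyclin E, had a pair of probes. The brighter one (ILMN_1665559) ran from 1565 to 1764 in high glucose, with a median of 1678, and from 1014 to 1389 in low glucose, with a median of 1172. The groups did not overlap. The means were 1665 ± 84.1 and 1182 ± 124 (SD, n = 6 each), a 1.41-fold rise (log2 change 0.50 with a standard error of 0.07, limma adjusted p = 3.8e-06). The dimmer one (ILMN_1653443) overlapped, with 307 to 407 in high and 310.2 to 354 in low glucose, and its log2 change of 0.15 did not pass the test (95% interval -0.01 to 0.30, adjusted p = 0.26 from limma). The brighter probe changed by 0.35 more on the log2 scale (two-sided exact permutation test, n = 6 each, p = 0.0065, adjusted p = 0.010 over the 11 pairs of member probes compared). Both probes are annotated to the same transcript, so the value of CDK2 depends on which probe is read.

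CDK4 and CDK6, the kinases of the D-type cyclins, differed from each other. The CDK4 probe was bright (96.9 percentile) and ran from 4257 to 4968 in high and from 3887 to 5019.7 in low glucose. The high glucose arrays lay inside the low glucose range, with means of 4689 ± 260 and 4501 ± 365 (SD, n = 6 each). The log2 change of CDK4 was 0.06 (95% interval -0.06 to 0.18, adjusted p = 0.63 from limma). CDK6, by contrast, ran from 3390.2 to 3995 in high glucose and from 2078 to 2933 in low glucose, where replicates 1 and 5 were lowest. Its groups did not overlap, and the means of 3633 ± 238 and 2630.0 ± 358 (SD, n = 6 each) made a 1.39-fold rise (log2 change 0.48 with a standard error of 0.08, limma adjusted p = 2.6e-05). The log2 difference of CDK4 minus CDK6 was 0.37 ± 0.15 in high and 0.78 ± 0.26 in low glucose, with some overlap of the arrays, so CDK6 rose by 0.41 more (two-sided exact permutation test, n = 6 each, p = 0.0087, adjusted p = 0.012 over the 11 pairs). CDK2, by its brighter probe, likewise rose by 0.44 more than CDK4 (two-sided exact permutation test, n = 6 each, p = 0.0022, adjusted p = 0.0048 over the 11 pairs). With the mean of both CDK2 probes this difference was 0.26 (adjusted p = 0.0076, exact permutation test).

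The promoters of CDK4 and CDK6 are shown because the E-box CACGTG, which reads the same on both strands, is the site of MYC and, in paired and looser form, of ChREBP, a transcription factor that responds to glucose. CDK4 is a known target of MYC. The windows are chr12:57752261-57752560 for CDK4 and chr7:92836524-92836823 for CDK6, both on the minus strand of GRCh38.p14 and laid out as above, with the E-box in capitals.
CDK4: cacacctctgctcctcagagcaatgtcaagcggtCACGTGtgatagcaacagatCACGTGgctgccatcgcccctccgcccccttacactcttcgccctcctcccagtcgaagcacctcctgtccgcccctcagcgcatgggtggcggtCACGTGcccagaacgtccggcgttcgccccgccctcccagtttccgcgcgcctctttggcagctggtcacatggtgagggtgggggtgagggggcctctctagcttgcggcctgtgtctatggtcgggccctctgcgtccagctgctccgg
CDK6: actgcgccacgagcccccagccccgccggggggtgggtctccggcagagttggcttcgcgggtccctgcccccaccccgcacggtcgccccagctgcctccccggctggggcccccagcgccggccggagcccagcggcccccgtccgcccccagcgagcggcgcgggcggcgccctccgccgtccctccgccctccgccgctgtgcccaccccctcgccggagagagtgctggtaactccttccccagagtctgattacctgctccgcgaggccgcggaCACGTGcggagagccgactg
CDK4 has 3 E-boxes, starting at bases 35, 55 and 150 of the window, and CDK6 has 1, at base 281, within the transcript. In all, 4 of the 12 windows held an E-box: the CDK4 window, 1 of 2 CDK6 windows and 2 of 3 windows of CDKN2C, which has no probe. An E-box is found in 7.26% of all windows, and 3 or more in 33 of the 35116 windows (0.094%). No marked match in the 3 printed windows overlapped a match to another of these motifs. On the same arrays MYC itself, named after its value was seen, was lower in high glucose by the brighter of its 2 probes. That probe stood at 6219 ± 193 against 10184 ± 573 in low glucose (SD, n = 6 each, log2 change -0.71, adjusted p = 9.5e-12 from limma). A match of letters is not a bound site, and a part of MYC in the values of the kinases was not tested.

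**Figure D2:**
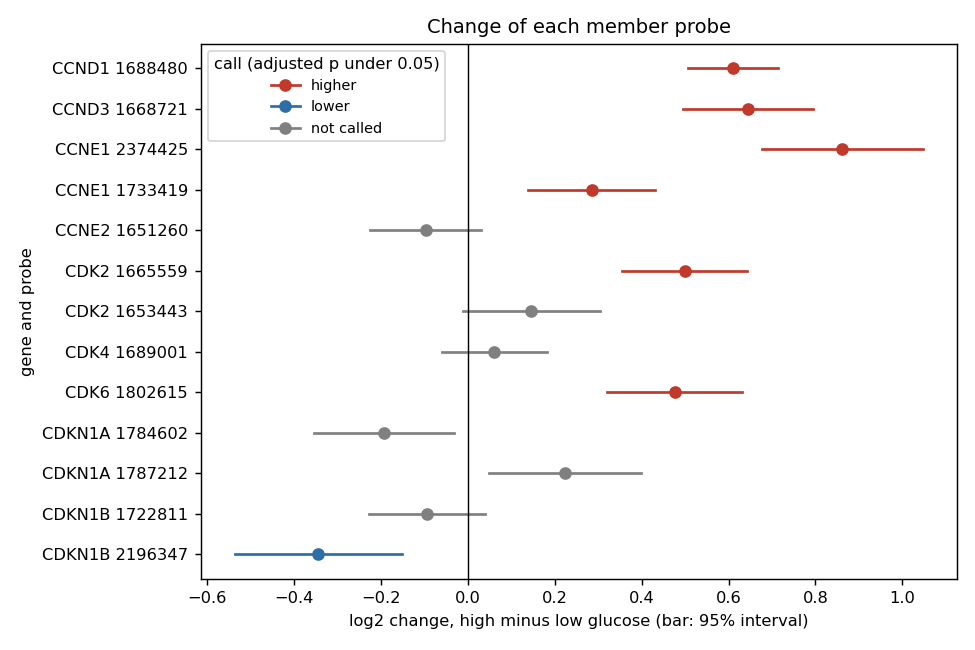
Log2 change of each member probe, high minus low glucose, with its 95% interval from limma, in red where called higher, blue where called lower and grey where not called. The cyclin probes other than CCNE2 lie to the right of 0, from 0.28 to 0.86, while the probes of CDKN1A lie on either side of it, at -0.19 and 0.22.

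CDKN1A encodes p21, the inhibitor through which p53 and other stress signals stop the cycle. Its bright probe (ILMN_1784602, 96.3 percentile) ran from 3330.3 to 3946 in high glucose, with a median of 3569, and from 3277 to 5212 in low glucose, with a median of 4072. The highest low glucose array was replicate 1 and the lowest was replicate 5, and the groups overlapped. The means were 3599 ± 207 and 4155 ± 671 (SD, n = 6 each), and the log2 change of -0.19 did not pass the test (95% interval -0.35 to -0.03, adjusted p = 0.11 from limma). Without low glucose replicate 5 it did (log2 change -0.26, adjusted p = 0.0097 from limma). It also did when only probes over 100 on at least 6 arrays were tested (adjusted p = 0.047 from limma).

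The other CDKN1A probe (ILMN_1787212), annotated to another transcript of the gene, was far dimmer. It ran from 132 to 181 in high and from 118 to 145 in low glucose, so that its groups overlapped with the high glucose arrays at the upper end. Its log2 change was 0.22 (95% interval 0.05 to 0.40, adjusted p = 0.079 from limma). It passed without high glucose replicate 6 (log2 change 0.27, adjusted p = 0.035) and among the probes over 100 on at least 6 arrays (adjusted p = 0.048). The log2 difference of the bright minus the dim probe was 4.55 ± 0.19 in high and 4.97 ± 0.20 in low glucose. This shift of -0.42 was larger than the spread between replicates (two-sided exact permutation test, n = 6 each, p = 0.0043, adjusted p = 0.0079 over the 11 pairs), so these probes did not measure the same change.

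CDKN1B encodes p27, which holds CDK2 inactive in resting cells. Its brighter probe (ILMN_1722811) ran from 1775 to 2242 in high and from 1825 to 2208 in low glucose, almost the same range. The means were 1916 ± 172 and 2043 ± 125 (SD, n = 6 each; log2 change -0.09, 95% interval -0.23 to 0.04, adjusted p = 0.44 from limma). The second probe (ILMN_2196347) ran from 1115 to 1617 in high glucose, with a median of 1395, and from 1399.9 to 2003 in low glucose, with a median of 1864. The groups overlapped, since low glucose replicates 1 and 4 lay at the level of the high glucose arrays. The means of 1379.7 ± 188 and 1754 ± 254 (SD, n = 6 each) nevertheless made a called fall (log2 change -0.34, 95% interval -0.54 to -0.15, adjusted p = 0.0090 from limma). The bright minus the second probe differed by 0.25 between the groups (two-sided exact permutation test, n = 6 each, p = 0.028, adjusted p = 0.034 over the 11 pairs). This difference did not pass when any of 8 arrays was left out, high glucose replicates 3, 4, 5 and 6 or low glucose replicates 2, 3, 5 and 6, with adjusted p from 0.053 to 0.066 over those 8. Both probes are annotated to the same transcript.

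Cyclins were set against inhibitors on the same array, since the proteins of both can bind in the same complexes with the kinases. The log2 difference of CCND1 minus CDKN1A, by their brightest probes, was 1.39 ± 0.15 in high and 0.58 ± 0.29 in low glucose. The arrays did not overlap, and the shift was 0.80 (two-sided exact permutation test, n = 6 each, p = 0.0022, adjusted p = 0.0048 over the 11 pairs). The CDKN1A probe used here changed by -0.19 and the other CDKN1A probe by 0.22, so the size of this shift depends on the probe read. The log2 difference of CCNE1 minus CDKN1B shifted by 0.96, also without overlap (two-sided exact permutation test, n = 6 each, p = 0.0022, adjusted p = 0.0048). CCND1 alone changed by 0.61 and CCNE1 alone by 0.86, so these shifts largely restate the rises of the cyclins. The inhibitors themselves, CDKN1A minus CDKN1B, shifted by -0.10, within the spread of the arrays (two-sided exact permutation test, n = 6 each, p = 0.52), and by 0.23 when the probes of each gene were averaged. These differences compare changes in mRNA only, and a difference between probes has no meaning as a ratio of transcripts. The smallest p that the test of 6 against 6 arrays can give is 0.0022. All pairs were chosen with earlier results of these data known, so these p-values are no independent evidence.

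**Figure D3:**
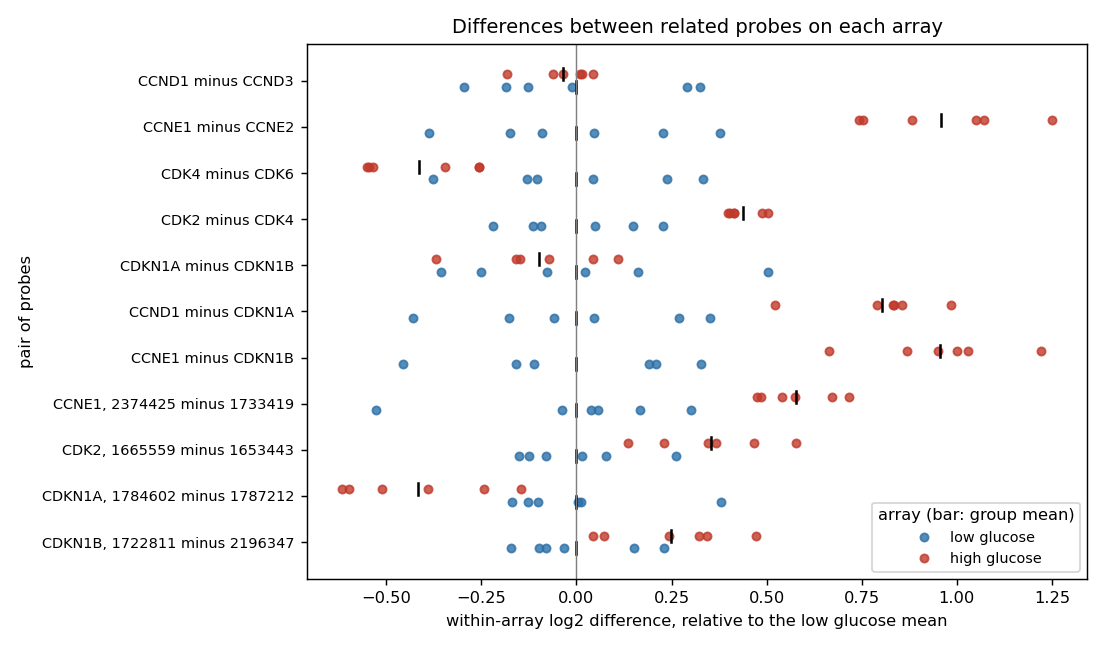
Within-array log2 difference between pairs of member probes, shown relative to the low glucose mean of each pair, with 1 point per array (low glucose in blue, high glucose in red) and bars at the group means. The first 7 rows set genes against each other and the last 4 set probes of 1 gene against each other. The groups are apart for 5 pairs, of which CCNE1 minus CCNE2 and the CCNE1 probes rest on a probe near background. The others include CCND1 minus CDKN1A (0.80) and CCNE1 minus CDKN1B (0.96). The groups are mixed for CCND1 minus CCND3 (-0.04).

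Other genes of the pathway were read from lists of named genes, each gene from its brightest probe. By that measure 27.6% of 18852 genes were called, 15.4% higher and 12.2% lower, and 18.5% had no overlap between the groups, with a median log2 change of 0.01. Of all these genes 37.6% had a mean under 100, and dim probes were called less often. The lists of kinase activation, turnover, S phase genes and transcription factors had 0 genes under 100. The share among probes over 100 on at least 6 arrays (20.2% higher and 17% lower) is therefore nearer to those lists. Of 5 other cyclins and CDKs, 2 were higher, CCNA2 and CDK1. CCNA2, the gene of cyclin A2, which takes over CDK2 in S phase, ran from 4427 to 4759 in high and from 2946 to 3480.1 in low glucose (log2 change 0.47, adjusted p = 1.3e-07 from limma). CDK1, the kinase of mitosis, had a log2 change of 0.29. Of 5 other genes named as CDK inhibitors, 2 were higher. CDKN2D, the gene of p19, an inhibitor of CDK4 and CDK6, had a log2 change of 0.33, although its dimmer probe did not pass (0.06). CDKN3 (0.74) encodes a phosphatase that acts on CDK2 and is not an inhibitor of the kind of p21 or p27. The list medians were 0.03 for the cyclins and CDKs and 0.17 for the inhibitors.

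Genes listed for the activation of G1 kinases moved in both directions: of 10 genes, 5 were higher and 3 were lower. By comparison 20.2% of the probes over 100 on at least 6 arrays were higher and 17% lower. The median log2 change of the list was 0.10. Some genes of this list act mainly toward mitosis, so these counts are not of G1 alone. The phosphatase genes CDC25A, whose product activates CDK2 (log2 change 0.64, adjusted p = 4.2e-06 from limma, its second probe 0.49), and CDC25B, which acts mainly toward mitosis (0.80, adjusted p = 1.3e-10), rose. SERTAD1, which encodes a CDK4-binding protein, fell most of the list. It ran from 1025 to 1283 in high and from 2172 to 3626 in low glucose, a 2.48-fold fall without overlap (log2 change -1.31 with a standard error of 0.09, limma adjusted p = 4.6e-11). CDK7, the catalytic subunit of the kinase that activates CDKs and also phosphorylates RNA polymerase II, was also lower, at 1768 ± 73.5 in high and 2784 ± 363 in low glucose (SD, n = 6 each; log2 change -0.64, adjusted p = 2.0e-07 from limma). Its partners, named after their values were seen, were CCNH (log2 change -0.30, called lower) and MNAT1 (-0.21, adjusted p = 0.058).

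Of 14 genes for the turnover of G1 cyclins and CDK inhibitors, 2 were higher, 1 was lower and 11 did not pass. The median log2 change was 0.00. These shares were no larger than those of all genes, 15.4% higher and 12.2% lower. SKP2, which marks p27 for destruction, stood out. Its brightest probe ran from 3195 to 4269 in high and from 1419 to 1977 in low glucose, a 2.10-fold rise without overlap (log2 change 1.07 with a standard error of 0.08, limma adjusted p = 7.8e-11). Its other probes also rose, by 1.22 and 0.53 on the log2 scale. SKP1, the adaptor that holds SKP2 in its ligase, had a log2 change of 0.31 (adjusted p = 1.3e-04 from limma), while its other probe was at background (69.8 and 68.1). RNF123, a subunit of another ligase for p27, was the gene called lower (-0.22, adjusted p = 0.033), a call lost without any of 5 arrays, high glucose replicates 1, 4 and 5 or low glucose replicates 2 and 6.

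Downstream of the kinases, 5 of 13 genes of pocket proteins and E2F factors were higher and 3 were lower. The median log2 change was 0.11, and 15.4% of all genes were higher and 12.2% lower. E2F2, the gene of an activating E2F, ran from 1164 to 1429 in high and from 409 to 603 in low glucose, a 2.52-fold rise (log2 change 1.34 with a standard error of 0.09, limma adjusted p = 4.5e-12). E2F7, which encodes a repressing E2F that E2F factors themselves induce, rose by 0.69 and TFDP1, the gene of the usual dimer partner of E2F proteins, by 0.62 (its second probe by 0.63). RBL1, the gene of the pocket protein p107, rose by 0.39, whereas its dimmer probe gave -0.18 and did not pass. The genes called lower, named after their values were seen, were RB1 itself (-0.22), RBL2 (-0.27) and TFDP2 (-0.33). The call of RB1 (adjusted p = 0.046 from limma) was lost without any of 8 arrays, high glucose replicates 2, 3, 4 and 6 or low glucose replicates 1, 4, 5 and 6, with adjusted p from 0.056 to 0.13 over those 8. Of 15 measured S phase genes under E2F control, 9 were higher and none was lower (median log2 change 0.23). Of the probes over 100 on at least 6 arrays, 20.2% were higher and 17% lower. PCNA (1.11), MCM6 (0.62), MCM3 (0.55) and TK1 (0.53) were the most changed S phase genes. Another PCNA probe also rose (0.49), while the dimmest gave 0.05 and did not pass. The 6 that did not pass were CDC6, CDT1, ORC1, CDC45, RRM1 and RRM2, named after their values were seen. This list was chosen with earlier results of these data known, so its direction is no independent evidence.

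Of 20 measured transcription factors that are known to act on CDKN1A, CDKN1B or CCND1, 14 were lower and 4 were higher. The median log2 change was -0.37. By comparison 17% of the probes over 100 on at least 6 arrays were lower and 20.2% higher. The list does not sort factors that raise these genes from those that lower them. Its count and median therefore have no direction for the members. The most changed were immediate early genes: FOS (log2 change -3.40), JUN (-1.90), EGR1 (-1.68) and JUNB (-1.52). JUN and FOS are subunits of AP-1. A part of any of these factors in the values of the members was not tested. The 4 that rose, named after their values were seen, were STAT3 (0.53), FOXO4 (0.44), CTNNB1 (0.30) and SP1 (0.25). FOXO1 (-0.44) and FOXO3 (-0.34), likewise named after their values were seen, were lower, so the FOXO genes did not move together.

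**Figure D4:**
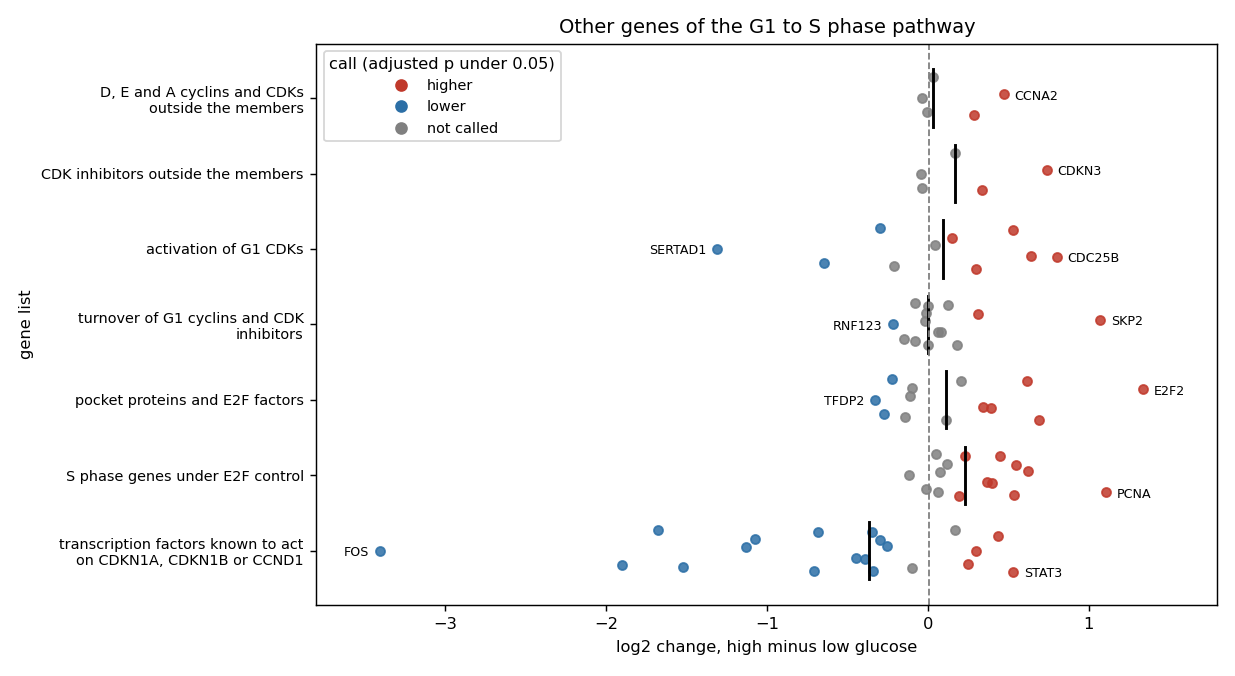
Log2 change, high minus low glucose, of each measured gene in 7 lists of the G1 to S phase pathway, 1 point per gene from its brightest probe, in red where called higher, blue where called lower and grey where not called. Bars mark the list medians, from -0.37 for the transcription factors to 0.23 for the S phase genes, and the dashed line marks the median of all genes, 0.01. The most changed called gene on each side of a list is named.

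The genes whose pattern over the 12 arrays was most like that of the CCNE1 probe with the largest rise were FSCN1 (Pearson r = 0.988), SPR (r = 0.985) and CX3CL1 (r = 0.980), with log2 changes of 0.51, 0.58 and 0.55. For the CDKN1B probe that fell they were LNX2 (r = 0.913), IGSF23 (r = 0.911) and TJP1 (r = 0.900). These correlations over 12 arrays include the step between the groups, which any gene that changed with glucose shares.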

How the data were processed

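RNA of 12 HepG2 cultures had been hybridized to arrays of the Illumina HumanHT-12 BeadChip type. The intensity values deposited by the authors had been normalized with limma by the methods of the study. GenomeStudio 2010.1 is listed in the notes of the submitters, and background correction and filters are not given in the sources used here. At the same rank, values of different arrays differ by at most 0.825. A table of values before normalization was not used, since none of its 24 columns could be tied to a sample. Probes were named from the platform annotation (28098 with 1 symbol, 13 with several, 20692 with none). The symbols were matched to RefSeq through gene IDs, which changed none.

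Log2 intensities were fitted by lmFit and trended eBayes, without a block, in limma 3.58.1 (R 4.3.3) over all 48803 probes. The number of arrays limits the precision, with a median SD within groups of 0.125 (log2). Simulated data with known changes were used to check the fit. Exact permutation tests on within-array differences covered 11 pairs, adjusted together. Plots were made in Python 3.11.15 (matplotlib 3.10.9).

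The members, lists and pairs were chosen with earlier results of these data known. Named genes are all members, up to 4 called genes of each list with the largest change, and the 3 genes most correlated with the member probes that rose and fell most, and others are marked as chosen after their values were seen. Alternatives were log2(intensity + 16), normexp correction (offset 16), cyclic loess, a filter on dim probes (over 100 on at least 6 arrays), a regularized t statistic after Cyber-T (window of 101 probes, prior weight 10), limma without a trend or with array weights, the replicate number as a block, each array left out, an adjusted p under 0.01, adjustment over named probes, genes in place of probes and, for the pairs, the mean of the probes of a gene.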

Additional observations from a re-analysis of the deposited data

Results flagged for a closer look

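In groups of 6 arrays, 48 sets of values (26 of member probes and 22 of pair differences) were searched for an array far from the others by Dixon's test at the 95% level, and 2 were found, where chance gives about 1 in 20. The CCNE2 probe in low glucose had its highest log2 intensity on replicate 6, 6.26 (intensity 76.7), while the nearest array had 6.14 and the others lay from 67.1 to 70.5 in intensity. The log2 difference of the bright minus the dim CDKN1A probe was 5.35 on low glucose replicate 1, and the nearest low glucose array had 4.98. That array also had the highest intensity of the bright CDKN1A probe in its group. Without it, the shift between the groups in this difference was -0.34 and still passed the exact permutation test (adjusted p = 0.017).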

How the results depend on the processing

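Of the 13 member probes, those called kept their call and direction wherever an alternative tested them, each array left out included. The filter on dim probes removed the dimmer CCNE1 probe. The count called higher stayed 6 there because the dim CDKN1A probe passed. That count was 7 without high glucose replicate 6 and 5 with each gene read from its brightest probe. The pair differences and counts named here are the exceptions. The member probes called lower, 1 in all, became 2 among probes over 100 on at least 6 arrays, 2 with the replicate number as a block and 0 with each gene read from its brightest probe. With 1 array left out they were 1 to 2 (2 without low glucose replicate 5, by the bright CDKN1A probe). The adjusted p of that probe ran from 0.00966 to 0.307 over its alternatives, that of the dim CDKN1A probe from 0.0353 to 0.214, and that of the CDKN1B probe that fell from 0.00172 to 0.0342. Of the turnover genes, 0 were lower at an adjusted p under 0.01 and 0 to 1 with an array left out. RB1 was also lost with the block (adjusted p = 0.052) and the Cyber-T style test (0.0502). Calls of other list genes lost without single arrays were those of CKS1B (5 arrays), MCM5 (7) and SP3 (4), named after their values were seen.

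The replicate numbers did not pair the arrays (correlations of same-numbered arrays from -0.0357 to 0.0128, and 3 of 12 arrays nearest to their own number). As a block they moved the probes called over the table from 4278 to 4187 higher and from 3626 to 3573 lower, and the bright CDKN1A probe passed (limma adjusted p = 0.0498). With them as a block the exact test of the pairs cannot go below 0.03125, and no pair passed after adjustment. The adjusted p was 0.0573 for CCNE1 minus CCNE2 (0.96), CDK2 minus CDK4 (0.44), CCND1 minus CDKN1A (0.80), CCNE1 minus CDKN1B (0.96) and the probes of CCNE1 (0.58) and CDKN1A (-0.42), 0.0859 for CDK4 minus CDK6 (-0.41) and the CDK2 probes (0.35), and 0.115 for the CDKN1B probes (0.25).

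Neither CCND1 minus CCND3 nor CDKN1A minus CDKN1B, which did not pass, had a settled sign. With an array left out the first ran from -0.0941 to 0.0300 and the second from -0.17 to 0.0014, and the second was 0.23 with the mean of the probes of a gene (adjusted p = 0.14, exact permutation test). With an array left out the CDKN1B probe difference ran from 0.21 to 0.30, with adjusted p from 0.0185 to 0.0661. The cause of these changes was not tested. The CCNE2 probe and the dimmer CCNE1 probe lie near background, which limits what their values can show.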
